A study of Mus musculus with 4 samples.

Results

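Called GR and E2A ChIP-Seq peaks in mouse liver were described at 10 genes of the basic helix-loop-helix (bHLH) family: the E-protein genes Tcf3, Tcf4 and Tcf12, the Id genes Id1, Id2 and Id3, the repressor genes Hes1 and Bhlhe40, and Usf1 and Mlxipl. A peak was taken when it lay within 50 kb of the start of one of these genes or when the deposited annotation gave it the gene's symbol. This rule picked 61 of the 17545 called peaks, of which 60 lay within 50 kb and 47 carried the symbol of the gene. The other 14 peaks within 50 kb carried the symbol of a neighbouring gene, and 1 peak with the symbol Tcf4 lay farther away.

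All 4 samples came from livers of male E47+/+ (wild-type) C57BL/6 mice, labelled untreated, kept on chow and collected 10 h after lights on (ZT10). There were 2 replicates of the GR ChIP and 2 of the E2A ChIP, which the study describes as made from the same livers, without saying which GR and E2A replicates share a liver. The methods give an age of 10 to 16 weeks and an antibody amount of 8 µg, and they list wild-type littermates as the controls of the knockout mice. The submitted text contradicts itself at several points, so that titles, antibody and genotype were followed: the free-text descriptions of both E2A samples name a GR ChIP, the second of them in E47 mutants, and the study's supplement calls these livers Dex-treated. GR replicates were numbered as in the titles, while the names of the deposited lists have them the other way round.

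bHLH proteins bind DNA as dimers, with the basic region of each partner reading one side of the E-box CANNTG. E proteins are the broadly expressed partners in many of these dimers. Tcf3 encodes the antigen of the E2A antibody: its transcript is spliced to E12 or E47, the subject of the study. Tcf4 encodes E2-2 and Tcf12 encodes HEB. Id proteins lack the basic region, so that an E protein paired with an Id protein does not bind DNA. Hes1 is a repressor downstream of Notch. Bhlhe40 (DEC1) is a repressor that is part of the circadian clock. Usf1 and Mlxipl (ChREBP) bind E-box sites in metabolic genes, and ChREBP drives glycolytic and lipogenic genes in the liver when glucose is high. GR is the nuclear receptor for glucocorticoids, which binds the palindromic glucocorticoid response element (GRE).

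The lists held 4291 and 7334 peaks for GR replicates 1 and 2, and 4028 and 1892 for E2A replicates 1 and 2. GR replicate 2 stood apart with 57.4% of its peaks annotated to promoters, against 34.3% to 41.2% in the other three. Every value in the lists is a position, a width or a distance in bp, with no read count or height, so the depth behind a peak is unknown and no strength was compared. Of 8 hepatocyte marker genes, 8, 8, 8 and 6 had a peak within 50 kb in GR replicates 1 and 2 and E2A replicates 1 and 2. For 8 B cell markers the counts were 1, 3, 1 and 0, and Ebf1, Rag1, Igll1 and Vpreb1 were among those with none in any list. Of 6 Kupffer cell markers 1 had a peak in each list, of 5 endothelial markers 2 in each list, and of 5 stellate markers 1 in E2A replicate 1 alone. In whole liver a peak cannot be assigned to a cell type.

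The results turn on a few short stretches of DNA, which are given here first. They are from the plus strand of mm10 (GRCm38), 5′ to 3′, and none overlaps an annotated exon. The first 4 are from the regions with bases covered by a peak in all 4 samples: upstream of Bhlhe40 (chr6:108660302-108660561), upstream of Hes1 (chr16:30064099-30064358), upstream of Id2 (chr12:25098649-25098908, only partly under the peak of GR replicate 2) and in intron 1 of Mlxipl (chr5:135108137-135108396). In these, capitals mark each CANNTG.
Bhlhe40: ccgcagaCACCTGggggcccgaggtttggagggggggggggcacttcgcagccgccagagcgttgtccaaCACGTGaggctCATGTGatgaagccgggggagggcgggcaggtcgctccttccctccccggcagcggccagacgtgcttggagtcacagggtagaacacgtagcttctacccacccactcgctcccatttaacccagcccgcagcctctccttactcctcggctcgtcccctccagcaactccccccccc
Hes1: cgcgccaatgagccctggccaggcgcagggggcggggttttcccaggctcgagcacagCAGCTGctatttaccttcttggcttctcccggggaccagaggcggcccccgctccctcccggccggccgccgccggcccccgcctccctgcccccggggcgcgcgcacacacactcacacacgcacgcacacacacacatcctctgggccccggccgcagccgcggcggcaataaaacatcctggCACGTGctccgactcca
Id2: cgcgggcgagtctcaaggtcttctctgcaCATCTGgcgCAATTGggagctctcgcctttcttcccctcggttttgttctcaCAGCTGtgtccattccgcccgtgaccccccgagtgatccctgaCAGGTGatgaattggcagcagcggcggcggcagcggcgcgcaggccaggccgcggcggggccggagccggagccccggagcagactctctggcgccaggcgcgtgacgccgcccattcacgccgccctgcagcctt
Mlxipl: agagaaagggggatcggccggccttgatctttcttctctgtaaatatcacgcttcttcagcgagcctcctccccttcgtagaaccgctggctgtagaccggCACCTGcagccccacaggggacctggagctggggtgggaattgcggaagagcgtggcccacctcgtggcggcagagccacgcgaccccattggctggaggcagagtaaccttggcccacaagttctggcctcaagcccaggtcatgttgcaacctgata
The stretch from Bhlhe40 held 3 E-boxes, namely CACCTG and CACGTG and CATGTG. That from Hes1 held CAGCTG and CACGTG, that from Id2 CATCTG and CAATTG and CAGCTG and CAGGTG, and that from Mlxipl CACCTG alone. None of these 4 stretches held the GRE letters, which were searched as G, any base, ACA, 3 of any base, TGT, any base and C. Of the 2658 regions of the series with overlapping GR and E2A peaks, 1.47% held them in their central 200 bp.

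Another stretch is shown because it was the only place among the regions of these genes with those GRE letters. It lay far upstream of Bhlhe40 (chr6:108638571-108638828), under the peaks of both GR replicates and under no E2A peak, and here capitals mark the GRE.
Bhlhe40 GRE: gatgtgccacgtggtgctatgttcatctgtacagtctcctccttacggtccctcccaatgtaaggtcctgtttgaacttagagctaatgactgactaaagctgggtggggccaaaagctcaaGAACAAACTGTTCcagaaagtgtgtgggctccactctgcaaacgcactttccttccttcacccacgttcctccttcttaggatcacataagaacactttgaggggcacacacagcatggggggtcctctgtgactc
The GRE read GAACAAACTGTTC at chr6:108638693-108638705. The same stretch also held the E-boxes CACGTG and CATCTG, left in lower case.

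Peaks were found at the Id genes, Hes1, Bhlhe40 and Mlxipl and in the window of Usf1, and were rare or missing around the 3 E-protein genes. Within 50 kb of the gene start, 8 of the 10 genes had a GR peak in at least 1 replicate, where the share of all 21911 protein-coding genes was 44.0%. E2A peaks were called at 8 of the 10, against 28.7% of all genes. For both ChIPs these were Tcf3, Id1, Id2, Id3, Hes1, Bhlhe40, Usf1 and Mlxipl. All peaks in the windows of Tcf3 and Usf1 carried the symbols of other genes. By deposited symbol alone, 7 genes had a GR peak, Tcf4 among them, and 6 an E2A peak. No share of all genes was computed for that count. Tcf4 and Tcf12 had no peak within 50 kb in any sample.

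By sample, GR replicate 1 had peaks at 5 genes (all genes 23.6%) and GR replicate 2 at 8 (all genes 41.8%). E2A replicate 1 had peaks at 8 genes (all genes 26.5%) and E2A replicate 2 at 6 (all genes 13.7%). Thus GR replicate 1 found Id2, Id3, Hes1, Bhlhe40 and Mlxipl, and E2A replicate 2 found these and Usf1. The numbers of peaks were 10, 24, 18 and 8 in GR replicates 1 and 2 and E2A replicates 1 and 2, or 2.33, 3.27, 4.47 and 4.23 per 1000 peaks of the list.

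**Figure D1:**
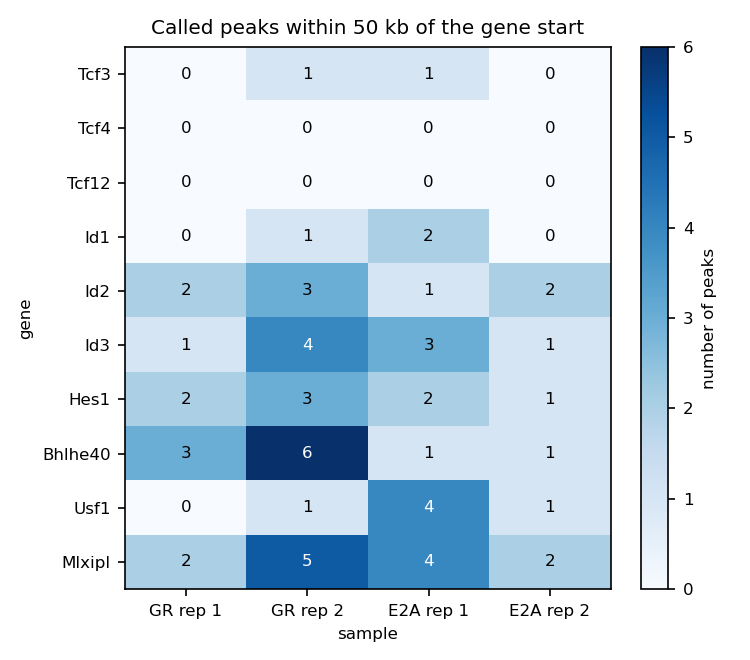
Number of called peaks within 50 kb of the start of each of the 10 genes (rows) in each of the 4 samples (columns). Tcf4 and Tcf12 are at 0 throughout, and the highest count is 6, at Bhlhe40 in GR replicate 2.

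The same counts were taken for 100 other bHLH genes. Here 21 had a peak in GR replicate 1, 42 in GR replicate 2, 31 in E2A replicate 1 and 17 in E2A replicate 2. The shares of the 10 genes were thus above those of the other bHLH genes in each sample. The other genes were not matched to the 10 for expression in liver and varied widely. Several had more peaks over the 4 samples than the 13 at Mlxipl, the most of the 10, among them Usf2 with 22 and Hes7 with 14. Atoh8 also had 13, while many, such as Id4, had none. These are counts over 10 genes that were picked with results of the same lists known, and no test was made of them.

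GR and E2A met at 6 of the 10 genes. A region called for both, in which a GR and an E2A peak shared at least 1 bp, was found within 50 kb of Id2, Id3, Hes1, Bhlhe40, Usf1 and Mlxipl, where 19.5% of all genes and 26 of the 100 other bHLH genes had one. By deposited symbol alone there were 5 such genes, without Usf1. The share of all genes by that rule was not computed. Tcf3 and Id1 had peaks of both ChIPs, though never in the same place. A region with a peak of all 4 samples lay at 5 of the 10 genes, against 4.50% of all genes and 6 of the 100 others. At Id3 the peaks of the 4 samples were only linked through 1 wide peak, and bases covered in all 4 samples were found at 4 of the 10 genes, Id2, Hes1, Bhlhe40 and Mlxipl, against 4.19% of all genes and 6 of the 100 others.

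**Figure D2:**
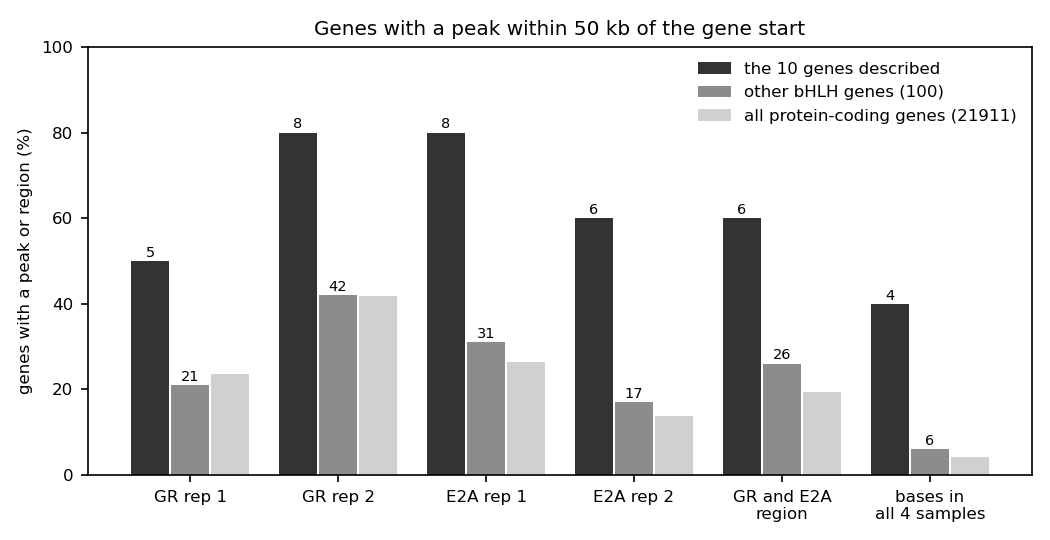
Share of genes (%, bars from 0) with a peak within 50 kb in each sample, with a region called for GR and E2A, and with bases covered in all 4 samples, for the 10 genes, 100 other bHLH genes and 21911 protein-coding genes. Figures over the bars are numbers of genes. For the 10 genes they run from 4, for bases in all 4 samples, to 8, in GR replicate 2 and E2A replicate 1.

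Merging the 60 peaks gave 34 regions, of which 10 were called for both ChIPs, 14 for GR only and 10 for E2A only. As a share, 29.4% of the 34 regions were called for both and 14.7% in all 4 samples. The merged regions of the whole series gave 24.7% and 4.44% of 10755. Without GR replicate 2, 6 of 25 regions were called for both (24.0%, all regions 22.5%). When a peak had to be called in both replicates of its ChIP, 4 of 11 were (36.4%, all regions 13.9%). In the main setting, regions seen in a single list made up 58.8% at these genes and 58.7% in the series. Of these 20 regions, 10 were from GR replicate 2, 9 from E2A replicate 1, 1 from E2A replicate 2 and none from GR replicate 1.

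Agreement between the lists was uneven. All 10 peaks of GR replicate 1 at these genes shared bases with a peak of GR replicate 2 (all peaks 65.6%), while 10 of the 24 peaks of GR replicate 2 met one of GR replicate 1 (all peaks 37.5%). For E2A, 5 of 18 peaks of replicate 1 met one of replicate 2 (all peaks 27.9%), and 5 of 8 peaks of replicate 2 met one of replicate 1 (all peaks 59.8%). A list with more peaks thus had a smaller share of them met, at these genes as in the series.

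Between the ChIPs, 5 of the 18 peaks of E2A replicate 1 met a peak of GR replicate 1 (all peaks 36.8%) and 9 met one of GR replicate 2 (all peaks 50%). Of the 8 peaks of E2A replicate 2, 5 met GR replicate 1 (all peaks 40.5%) and 7 met GR replicate 2 (all peaks 57.9%). These counts compare lists of unequal length, since GR replicate 2 had 7334 peaks to meet and E2A replicate 2 had 1892.

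Tcf3, the gene for E12 and E47, carried no called peak of either ChIP within its own bounds (chr10:80409514-80433647, minus strand). From its start, the nearest GR peaks lay 101537 bp away in replicate 1 and 26624 bp away in replicate 2. The nearest E2A peaks lay 41614 bp away in replicate 1 and 109553 bp away in replicate 2. The GR peak in the window (chr10:80406722-80407023) was 302 bp wide and was assigned to the promoter of Uqcr11. The E2A peak (chr10:80475261-80475623) was 363 bp wide and intergenic, with Onecut3 as its nearest gene. Neither was called in the other replicate. With no heights in the lists, an absent call does not show absent binding.

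Tcf12 (chr9:71842688-72111871) had no peak with its symbol, and the nearest peak in any list was 162818 bp from its start. Around Tcf4 (chr18:69343356-69689079) the only peak was that of GR replicate 2 in intron 15 of 19 (chr18:69667223-69667507, 285 bp). It lay 323867 bp into the gene, and 73797 bp from the inner transcript start that the deposited annotation used. Both genes are long and have many starts, 58 annotated for Tcf4 and 20 for Tcf12. When every transcript start was used, Tcf4 joined the genes with a GR peak, for 9 in all. The share of all genes was not computed for that setting.

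The Id genes differed among themselves. Id1 (chr2:152736251-152737410) had no peak in GR replicate 1 or E2A replicate 2, 1 peak in GR replicate 2 and 2 in E2A replicate 1. The GR peak (336 bp, chr2:152736147-152736482) lay over the gene start. One E2A peak was in the promoter, 966 bp upstream (372 bp), and the other was 3098 bp downstream of the start (482 bp). Each of the 3 peaks at Id1 was thus seen in a single list, and GR and E2A peaks did not share bases.

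Id2 (chr12:25093799-25097140, minus strand) had 8 peaks in 3 regions. The first was upstream of the gene, where the peaks were 263 bp in GR replicate 1, 319 bp in GR replicate 2, 436 bp in E2A replicate 1 and 335 bp in E2A replicate 2. All 4 samples called this region, and they shared 120 bp of it (chr12:25098790-25098909). The E2A peaks began 1394 and 1438 bp from the start of Id2, and the GR peaks 1507 and 1650 bp. The peak of GR replicate 2 was shifted outwards: its centre was 171 bp from that of the other GR replicate and 198 and 204 bp from those of E2A. The centres of the E2A replicates were 6.50 bp apart, and that of GR replicate 1 was 26.5 and 33.0 bp from them. The 4 E-boxes in capitals in the printed Id2 stretch lay under both E2A peaks and the peak of GR replicate 1, and outside that of GR replicate 2. The 120 bp common to all 4 samples held no CANNTG.

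The second region covered the start and body of Id2 and was GR only, with 816 bp in replicate 1 and 2524 bp in replicate 2. The peak of GR replicate 2 was rank 95 of 7334 by width, and no E2A peak met it. The last region was at the 3′ end, with a GR replicate 2 peak of 1808 bp and an E2A replicate 2 peak of 803 bp. It was missing in GR replicate 1 and E2A replicate 1. Id2 therefore had a region of both ChIPs in all samples, a region of GR alone, and a region of both seen in 1 replicate each.

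Id3 (chr4:136143497-136145755) had 9 peaks. The widest of all peaks at the 10 genes was here, 3055 bp in GR replicate 2 (chr4:136143372-136146426), from the promoter past the 3′ end. In GR replicate 1 the peak was 251 bp, near the gene start (chr4:136143720-136143970). In E2A replicate 2 it was 539 bp and covered the same place (chr4:136143585-136144123), with its centre 9 bp from that of GR replicate 1. In E2A replicate 1 it was 459 bp and lay in the 3′ UTR (chr4:136144611-136145069), with its centre 986 bp from that of the other E2A replicate. All 4 samples had a peak at Id3, but the E2A replicates shared no bases.

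A second region of both ChIPs lay 4226 bp from the start of Id3, with 622 bp in GR replicate 2 and 591 bp in E2A replicate 1. The remaining 3 peaks were each in a single list. Those of GR replicate 2 were 2666 bp upstream (324 bp) and 3183 bp downstream (297 bp), and that of E2A replicate 1 was 17861 bp upstream (267 bp). The last of these was rank 4006 of 4028 by width.

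Hes1 (chr16:30064384-30067796) had peaks of all 4 samples side by side in its promoter. They measured 695 bp in GR replicate 1, 488 bp in GR replicate 2, 602 bp in E2A replicate 1 and 483 bp in E2A replicate 2. All 4 ended within 16 bp of the gene start or crossed it, and they had 459 bp in common (chr16:30063910-30064368). Their centres were 124 bp apart for the GR replicates, 23.5 bp for the E2A replicates and 26.5 to 98.0 bp between the ChIPs. Both E-boxes of the printed Hes1 stretch, CAGCTG and CACGTG, lay under all 4 peaks. The deposited annotation measured from another start, 973 bp inside the gene, and gave the same peaks distances of 953 to 989 bp.

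A second region of Hes1 lay in the last exon (exon 4 of 4), with 387 bp in GR replicate 1, 254 bp in GR replicate 2 and 390 bp in E2A replicate 1. E2A replicate 2 had no peak there. This region held 4 E-boxes, CAGGTG and CACGTG and CACCTG and CAACTG. The last peak at Hes1 was in GR replicate 2 only, 773 bp into the gene (414 bp).

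Bhlhe40 (chr6:108660629-108666925) had 11 peaks. At its promoter the peaks were 1519 bp in GR replicate 1, 1736 bp in GR replicate 2, 1581 bp in E2A replicate 1 and 550 bp in E2A replicate 2. In the first 3 of these lists they were among the widest, at rank 39 of 4291, 170 of 7334 and 32 of 4028. The peak of E2A replicate 2 covered only the end of the region nearest to the gene, so that its centre was 586 bp from that of E2A replicate 1. The GR replicates were 112 bp apart. All 4 samples had 480 bp in common (chr6:108660294-108660773), which held 5 of the 10 E-boxes of the region, including the 3 of the printed Bhlhe40 stretch.

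The other 7 peaks of Bhlhe40 were from GR. Upstream of the promoter, GR replicates 1 and 2 had peaks of 294 and 553 bp that ended 1818 and 1566 bp before the start. Farther upstream, 21764 and 21800 bp from the start, they had peaks of 295 and 304 bp. The latter held the printed GRE and were assigned by the deposited annotation to 0610040F04Rik, an antisense gene, in intron 1 of 6. GR replicate 2 alone had 3 peaks inside Bhlhe40, 863, 1929 and 5544 bp from the start, and these too were assigned to 0610040F04Rik. Counted by deposited symbol, Bhlhe40 would have 6 peaks instead of 11, and the GRE would be missed.

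**Figure D3:**
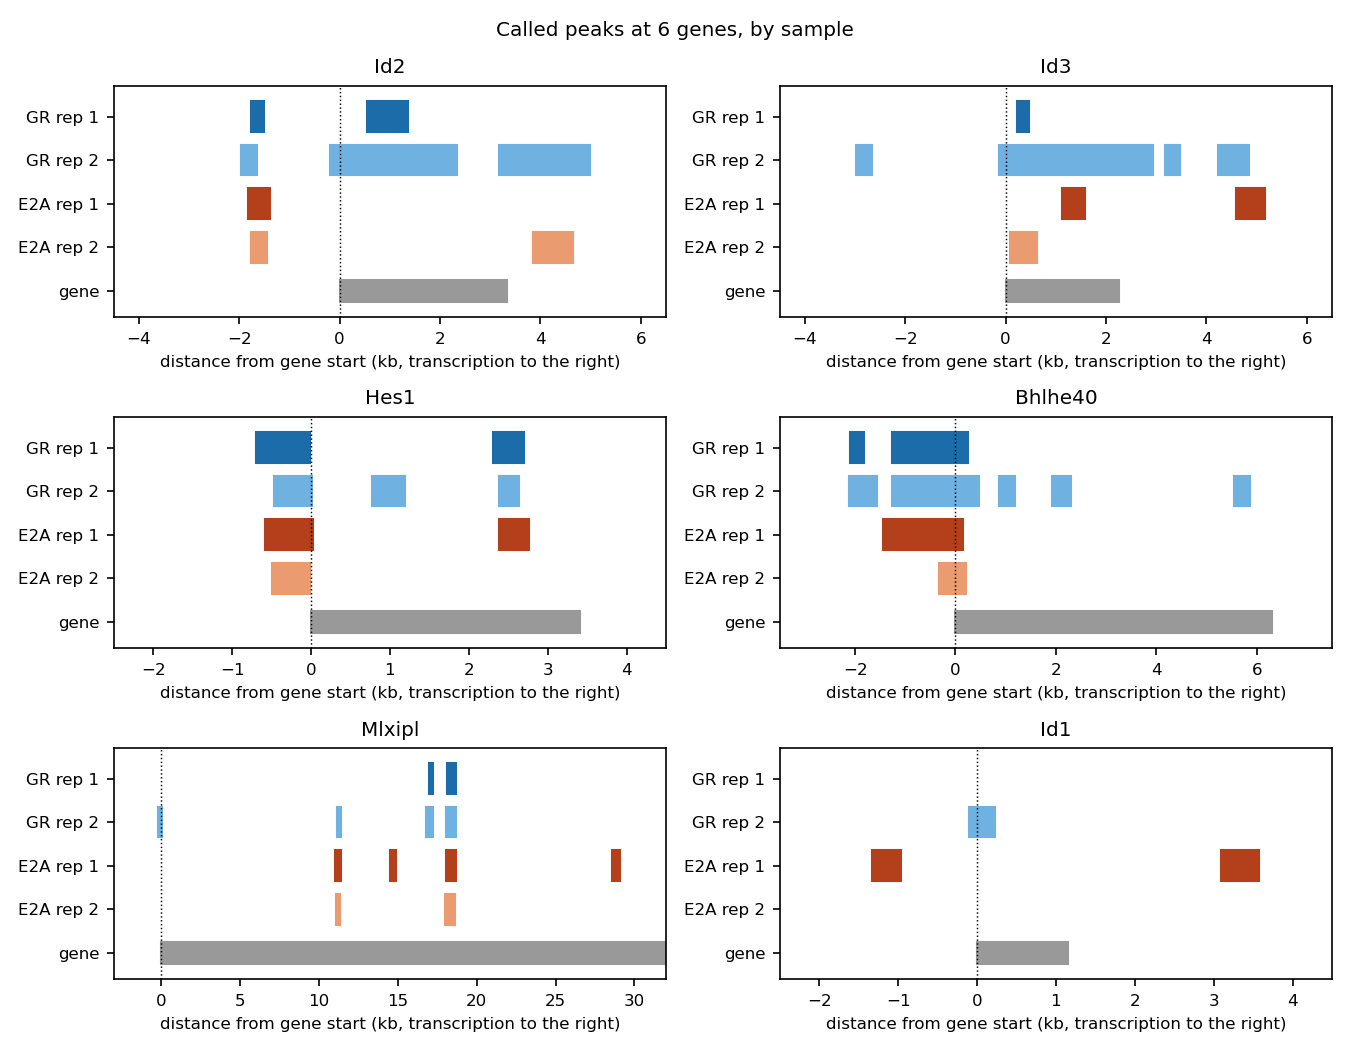
Called peaks in each of the 4 samples along Id2, Id3, Hes1, Bhlhe40, Mlxipl and Id1, drawn to scale in kb from the gene start, with the gene in grey and transcription to the right. Peaks farther out and the end of Mlxipl are beyond the axes. The 4 samples line up at Hes1 and in Mlxipl, the peak of GR replicate 2 upstream of Id2 is shifted by 171 to 204 bp from the others, and at Id3 the E2A replicates lie apart under the 3055 bp peak of GR replicate 2.

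Usf1 (chr1:171411313-171419142) had few peaks of its own. Within the gene there was 1 peak, 255 bp in E2A replicate 2 (chr1:171417066-171417320, rank 1790 of 1892 by width), over exon 7 of 9 by the deposited annotation, with Tstd1 as the nearest gene. It held the E-boxes CACGTG and CATGTG. The region of both ChIPs in the window of Usf1 was at the promoter of F11r, 26149 bp from the start of Usf1, with 382 bp in GR replicate 2 and 384 bp in E2A replicate 1. The other 3 peaks, all from E2A replicate 1, were assigned to Tstd1 or F11r, 13570, 29994 and 41740 bp from the start of Usf1. No peak carried the symbol Usf1.

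Mlxipl (chr5:135089890-135138382) had 13 peaks, the most of the 10 genes. In intron 1 of 16, 17992 bp from the gene start, the peaks were 516 bp in GR replicate 1, 606 bp in GR replicate 2, 654 bp in E2A replicate 1 and 621 bp in E2A replicate 2. The 4 samples had 467 bp in common (chr5:135108036-135108502), and the distances between their centres were 41.0 bp for the GR replicates, 50.5 bp for the E2A replicates and 10.0 to 102 bp between the ChIPs. This region held a single E-box, the CACCTG of the printed Mlxipl stretch, which lay under all 4 peaks. By the deposited annotation it lay 991 to 1145 bp downstream of an inner start of Mlxipl, which is 17001 bp inside the gene.

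At that inner start, the GR replicates had peaks of 276 and 401 bp, and no E2A peak was called. Another region of Mlxipl, 11031 bp from the gene start, had 386 bp in E2A replicate 1, 284 bp in E2A replicate 2 and 252 bp in GR replicate 2, with CATCTG under all 3. The latter peak was among the narrowest of its list, rank 7252 of 7334. E2A replicate 1 alone had peaks of 374 and 498 bp at 14523 and 28589 bp from the start. GR replicate 2 alone had 279 bp at the first start of Mlxipl, with a CACGTG, and 470 bp at the promoter of Dnajc30, 25523 bp upstream. The first start of Mlxipl thus had no E2A peak.

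The position of GR relative to E2A could be compared where each of the 4 samples had 1 peak, as was the case at 412 regions of the series and at 5 of these genes. Over the 412 regions, the median distance between centres was 67.2 bp for the GR replicates, 69.0 bp for the E2A replicates and 75.2 to 91.0 bp between a GR and an E2A sample. At Hes1, Id2, Id3 and Bhlhe40 the GR replicates were farther apart than this median, and at Mlxipl they were closer. The distances of GR to E2A at Hes1 and Mlxipl stayed within 102 bp. Those at Bhlhe40 were 141 to 444 bp, and here the E2A replicates were 586 bp apart. At Hes1, Bhlhe40 and Id3 every distance between a GR and an E2A centre was smaller than the larger of the distances between replicates. At Id2, GR replicate 2 lay 198 and 204 bp from E2A and so farther than the 171 bp between the GR replicates. At Mlxipl, 3 of the 4 distances, 51.0, 60.5 and 102 bp, exceeded the 50.5 bp between the E2A replicates.

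**Figure D4:**
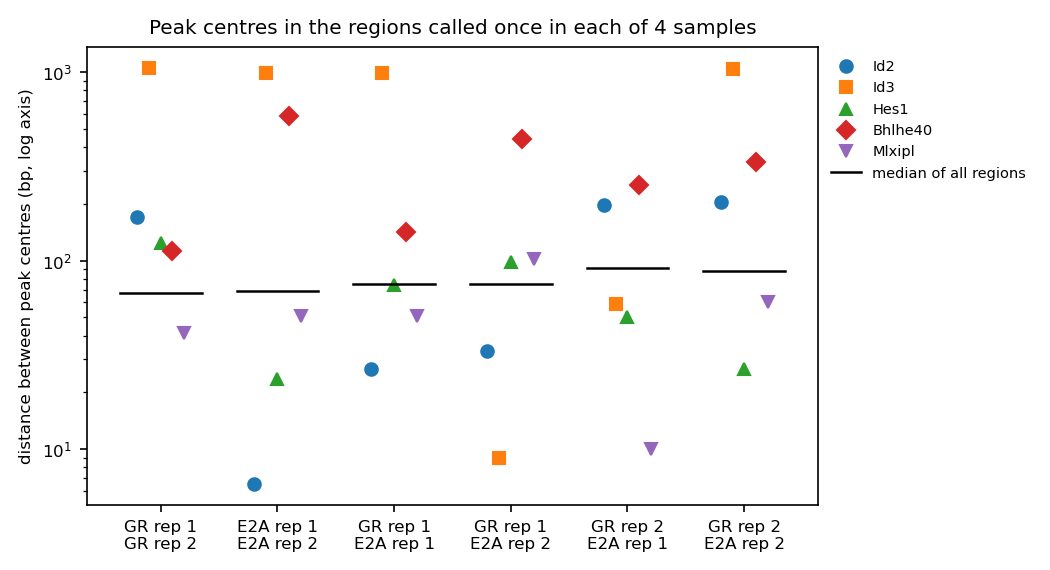
Distance in bp (log axis) between the centres of the peaks of each pair of samples at Id2, Id3, Hes1, Bhlhe40 and Mlxipl, with black lines for the median of 412 regions called once in each sample. The points of Mlxipl are between 10.0 and 102 bp, and those of Id3 fall near 1000 bp or below 60 bp because the peaks lie in separate parts of the gene.

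E-boxes were counted in the central 200 bp of each region, on both strands. E-boxes outside this window were not counted, as at the Hes1 promoter, where both lay outside it. In the widest regions the window could miss some peaks. At Id3 it lay outside the peaks of GR replicate 1 and E2A replicate 2, and at the Bhlhe40 promoter outside that of E2A replicate 2. CANNTG was present in 25 of the 34 regions at these genes (73.5%, 95% Wilson interval 56.9 to 85.4%), against 56.6% of all 10755 regions. Without GR replicate 2 this difference was gone, with 15 of 25 regions (60.0%) against 60.2% of 7361. Dropping that list also moved the central 200 bp of regions that its peaks had widened. In the central 100 bp, 14 of the 34 regions held CANNTG (41.2%), against 34.4% of all regions. CAGGTG, with CACCTG on the other strand, was present in 10 of 34 (29.4%, 16.8 to 46.2%), against 13.3%, and in 8 of 25 (32.0%) against 13.9% without GR replicate 2. CAGCTG was found in 7 (20.6%, all regions 11.8%) and CACGTG in 3 (8.82%, all regions 5.42%). These 3 are special cases of CANNTG and were counted in it too. The median GC content was 58.5% at these genes and 55.0% in all regions, and its part in the counts was not tested.

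The GRE letters, which read the same on both strands, were present in 1 of 34 regions (2.94%, 0.521 to 14.9%), against 2.87% of all regions. In the 10 regions called for both ChIPs, 7 had CANNTG (70.0%, 39.7 to 89.2%), 5 had CAGGTG (interval 23.7 to 76.3%) and none had the GRE letters, with shares of 54.3%, 12.7% and 1.47% in the 2658 such regions of the series. The intervals cover counting error only, and regions of 1 gene are not independent of each other. A match of letters does not show that a protein was bound there, and the lists give no summits to place one.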

How the data were processed

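Wild-type mouse livers were used for GR and for E2A ChIP-Seq, each with 2 replicates. Reads were mapped by the authors to mm10 with BWA-MEM (0.7.13 in the submitters' processing notes), duplicates were removed with Picard (1.119), and pairs with a unique position were drawn down to 18 mio in the GR libraries and 22 mio in those of E2A. MACS2 (2.1.0) was then run on every sample by itself. The methods name other versions of the last 2 tools. The control used for calling, the peak threshold and the annotation tool are not given in the sources used here. The deposited values are positions, widths and distances to the transcription start in bp, which are not normalized, with the nearest gene and its feature. They hold no counts, so the depth behind a peak is unknown.

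Each peak list was intersected with windows of 50 kb on either side of the GENCODE start of a gene in GRCm38. Peaks of any sample that shared at least 1 bp were merged to regions, and a region counted as called for both ChIPs when a GR and an E2A peak in it shared at least 1 bp. Width was end minus start plus 1. Motif letters were searched on both strands in the central 200 bp of each region. Shares have 95% Wilson intervals, which cover counting error only. The replicates were not tested against each other, since the lists give presence only, and no p-value was computed. All 10 genes were named with each of their peaks, and of the other bHLH genes those with a region called in all 4 samples.

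The genes, the list of 100 other bHLH genes, the marker lists and the alternatives were chosen with earlier results of these data known. The alternatives changed the window, the gene assignment, the transcript starts, the width limit, the replicates required, the overlap and the sequence searched, or dropped 1 replicate at a time. The scripts were checked on simulated data. Python 3.11.15 was used with pandas 2.3.3, numpy 2.4.6, scipy 1.17.1, matplotlib 3.10.9 and pysam 0.24.0. The genome index was made by samtools 1.23.1.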

Additional observations from a re-analysis of the deposited data

How the results depend on the processing

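Of 58 alternative values, 50 stayed within 1.5 times the value reported and 8 moved further. These moves are in counts. A window of 100 kb gave 16 of 51 regions called for both ChIPs instead of 10 of 34 (all regions 24.7%). When calls in both replicates were required, 5 genes had a GR peak and 4 an E2A peak instead of 8 each. The shares of all genes were not computed for that setting. Under it, 4 of 11 regions were called for both ChIPs (36.4%, all regions 13.9%). In the central 100 bp, 14 of 34 regions held CANNTG instead of 25 (41.2%, all regions 34.4%).

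Leaving out each replicate in turn gave 5 to 8 genes with a GR peak (all genes 23.6% to 44.0%). It gave 6 to 8 with an E2A peak (all genes 13.7% to 28.7%) and 5 to 6 with a region of both. There were 6 to 10 such regions, 15 to 27 regions with CANNTG and 1 with the GRE letters. Without GR replicate 2, 5 genes had a GR peak and 5 had a region of both ChIPs, the latter also without E2A replicate 1. Without it, 6 of 25 regions were called for both ChIPs (24.0%, all regions 22.5%) and 15 held CANNTG (60.0%, all regions 60.2%). These values were the lower ends of their ranges. The number of genes with a region of both ChIPs ranged from 4 to 7 over all alternatives. The share of all genes with such a region was computed in the main setting alone (19.5%). It is no baseline for the other settings.

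No paired analysis was possible because no result comes from a test. The study places both ChIPs in the same livers, the labels do not say which GR and E2A replicates belong together, and each GR list was therefore compared with each E2A list. Of the 34 regions, 20 were called in 1 sample only. Since the lists carry no heights, no binding and a signal just under the calling threshold cannot be told apart where a sample has no peak.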

Other observations

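Among the 100 other bHLH genes, 6 had a region called in all 4 samples within 50 kb, namely Hes7, Usf2, Srebf1, Tcf23, Lyl1 and Atoh8. At 4 of them the deposited annotation gave the region another symbol. That of Hes7, 24927 bp upstream, was assigned to Per1, a gene of the circadian clock. That of Usf2, which encodes the partner of Usf1, was 12110 bp downstream of its start, 4696 bp wide and assigned to Hamp, the gene for hepcidin. The region of Tcf23, 43109 bp upstream, was assigned to Khk (ketohexokinase). That of Srebf1, the gene for a lipogenic factor, lay 11897 bp downstream of its start and was assigned to Mir6922.

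Only Lyl1 and Atoh8 among these 6 genes had a region in all 4 samples that carried their own symbol. For Lyl1 it lay 5301 bp from the start. Atoh8 had 2 of them, 8105 and 18381 bp from its start, and its window held 4, 3, 3 and 3 peaks in GR replicates 1 and 2 and E2A replicates 1 and 2. Bhlhe41 (DEC2), the close relative of Bhlhe40, had 1, 3, 1 and 2 peaks, with a region of both ChIPs but none in all 4 samples. Id4 had no peak in any sample. Bhlhe41 and Id4 were named after their values were seen, because they are the relatives of genes in the report.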
